A study of Mus musculus with 14 samples.

Results

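The 9 genes described here belong to the B cell receptor and to the B lineage: Cd79a, Cd79b, Ms4a1, Cd22, Pax5, Blk, Blnk, Pou2af1 and Ebf1. They were chosen as a named list, and every non-control probe whose RefSeq identifier maps to one of these symbols was taken. That gave 10 probes for the 9 genes, out of 55681 probes that match 20022 genes by the same table. RNA of blood leukocytes was measured on 14 one-colour Agilent mouse arrays, 1 array per mouse. The 8 SS mice had met an adverse, hostile social environment as juveniles, and the 6 SI mice had been isolated at the same age. All mice, SI included, were conditioned with a cocaine dose under threshold (5 mg/kg), went through extinction and withdrawal, and were bled 24 hours later. Of the 8 labelled males 4 were SS and 4 were SI, and of the 6 labelled females 4 were SS and 2 were SI. No mouse free of early stress or of cocaine was analysed here, and the sources used here do not give strain or exact age. The labels call the cells PBMC, but they describe red cell lysis of EDTA blood with no gradient or sort, so granulocytes and platelets can be present.

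A B cell recognises antigen with a membrane immunoglobulin that is held in a complex with the CD79A and CD79B chains. These carry the tyrosine motifs that are phosphorylated by Src family kinases such as BLK, after which the adaptor BLNK links the kinase SYK to calcium signalling. CD22 binds sialic acid and recruits a phosphatase that dampens the signal. The transcription factors EBF1 and PAX5 set up and hold B cell identity, and the coactivator OCA-B, encoded by Pou2af1, works with octamer-binding factors. In blood these transcripts come mostly from circulating naive B cells.

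Levels are scaled log2 signals: the log2 processed signal of a probe minus the 75th percentile of the array, taken over the 14502 probes well above background on all 14 arrays. A negative level is therefore below that percentile and not absent, and levels of different probes are not comparable. Labelled females shared 1 slide and labelled males another, which means that sex label and slide cannot be told apart. On each slide SS and SI mice also lay in different columns, so stress group and column cannot be told apart either. Sex-linked transcripts went against the sex labels: the Y-linked Eif2s3y and Ddx3y were well above background in 6 of 6 labelled females and in 0 of 8 labelled males, and Xist in 0 of 6 labelled females and in 5 of 8 labelled males. The words labelled male and labelled female name the groups as deposited. Nothing in the files checks the SS and SI labels. Between 34.8% and 47.7% of the spots of an array were well above background, and the precision of each comparison is limited by the number of arrays.

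The members were detected, which by itself does not show that their RNA came from B cells. Over all 55681 probes, 14502 were well above background on all 14 arrays, and so were the neutrophil and platelet markers used further on. Cd22 and Pax5 did not follow the other members in labelled males, as described below. Of the 10 probes, 9 were well above background on 14 of 14 arrays, with at least 1 for every gene, and no member was lost to the filter on dim probes. The second Pax5 probe was well above background on 0 of 14 arrays and was not tested. The further B cell markers Cr2, Fcer2a and Cd37 were also well above background on all 14 arrays. Of 8 markers of B cell precursors, 5 (Vpreb1, Igll1, Rag1, Rag2 and Dntt) were too dim to be tested. The other 3 were tested: Vpreb2 and Sox4 were well above background on 12 of 14 arrays and Cd93 on 14.

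Promoters are shown for 3 members because Cd79a and Blnk were low on the same labelled male arrays while Cd22 ran the other way, as described further on. The RefSeq promoter table (build GRCm38.p6) held 6 of the 9 members: Cd79a, Cd22, Pax5, Blnk, Pou2af1 and Ebf1. Each sequence covers the 250 bases before the annotated start, 5′ to 3′ on the strand of the gene. A pair of motifs was searched on both strands, the octamer ATGCAAAT and a core bound by EBF1 (TCCC, any 2 bases, then GGGA), which share no letters here, and matches stand in capitals.
Cd79a, chr7:24897247-24897496, plus strand: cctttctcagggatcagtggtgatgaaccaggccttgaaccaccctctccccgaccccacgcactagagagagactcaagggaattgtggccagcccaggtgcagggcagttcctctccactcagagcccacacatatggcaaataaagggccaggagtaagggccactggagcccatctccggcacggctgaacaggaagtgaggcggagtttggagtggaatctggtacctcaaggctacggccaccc
Blnk, chr19:40994222-40994471, minus strand: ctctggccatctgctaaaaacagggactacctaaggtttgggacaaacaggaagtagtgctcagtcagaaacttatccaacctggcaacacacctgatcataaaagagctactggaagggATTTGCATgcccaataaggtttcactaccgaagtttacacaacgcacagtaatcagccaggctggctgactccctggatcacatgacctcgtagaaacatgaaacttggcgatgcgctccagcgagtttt
Cd22, chr7:30879029-30879278, minus strand: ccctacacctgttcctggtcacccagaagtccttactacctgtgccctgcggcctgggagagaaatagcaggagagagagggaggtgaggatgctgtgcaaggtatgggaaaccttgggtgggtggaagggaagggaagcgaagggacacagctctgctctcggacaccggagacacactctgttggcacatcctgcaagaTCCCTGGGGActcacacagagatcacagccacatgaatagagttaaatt
The octamer was found in 1 of the 6 members with a promoter, Blnk, starting 130 bases before the start, and in 1.62% of all 32536 promoter windows of this length. The EBF1 core was found in 1 of the 6, Cd22, starting 49 bases before the start, and in 0.787% of all windows. A match is a description of the letters and not evidence of binding. Only exact matches were searched, so a promoter without a match can still hold a variant site.

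The comparison of SS with SI mice asks which blood transcripts separate the early social experiences during cocaine abstinence. For the B lineage genes no difference passed the test in any comparison, and mice of the same group differed widely from each other. In labelled males, 3 of 4 SS mice had low levels of most members, but so did 1 of 4 SI mice. In labelled females, 1 of the 2 SI mice was low and the other was not. Less RNA per B cell and fewer B cells in the blood sample cannot be told apart in such data.

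**Figure D1:**
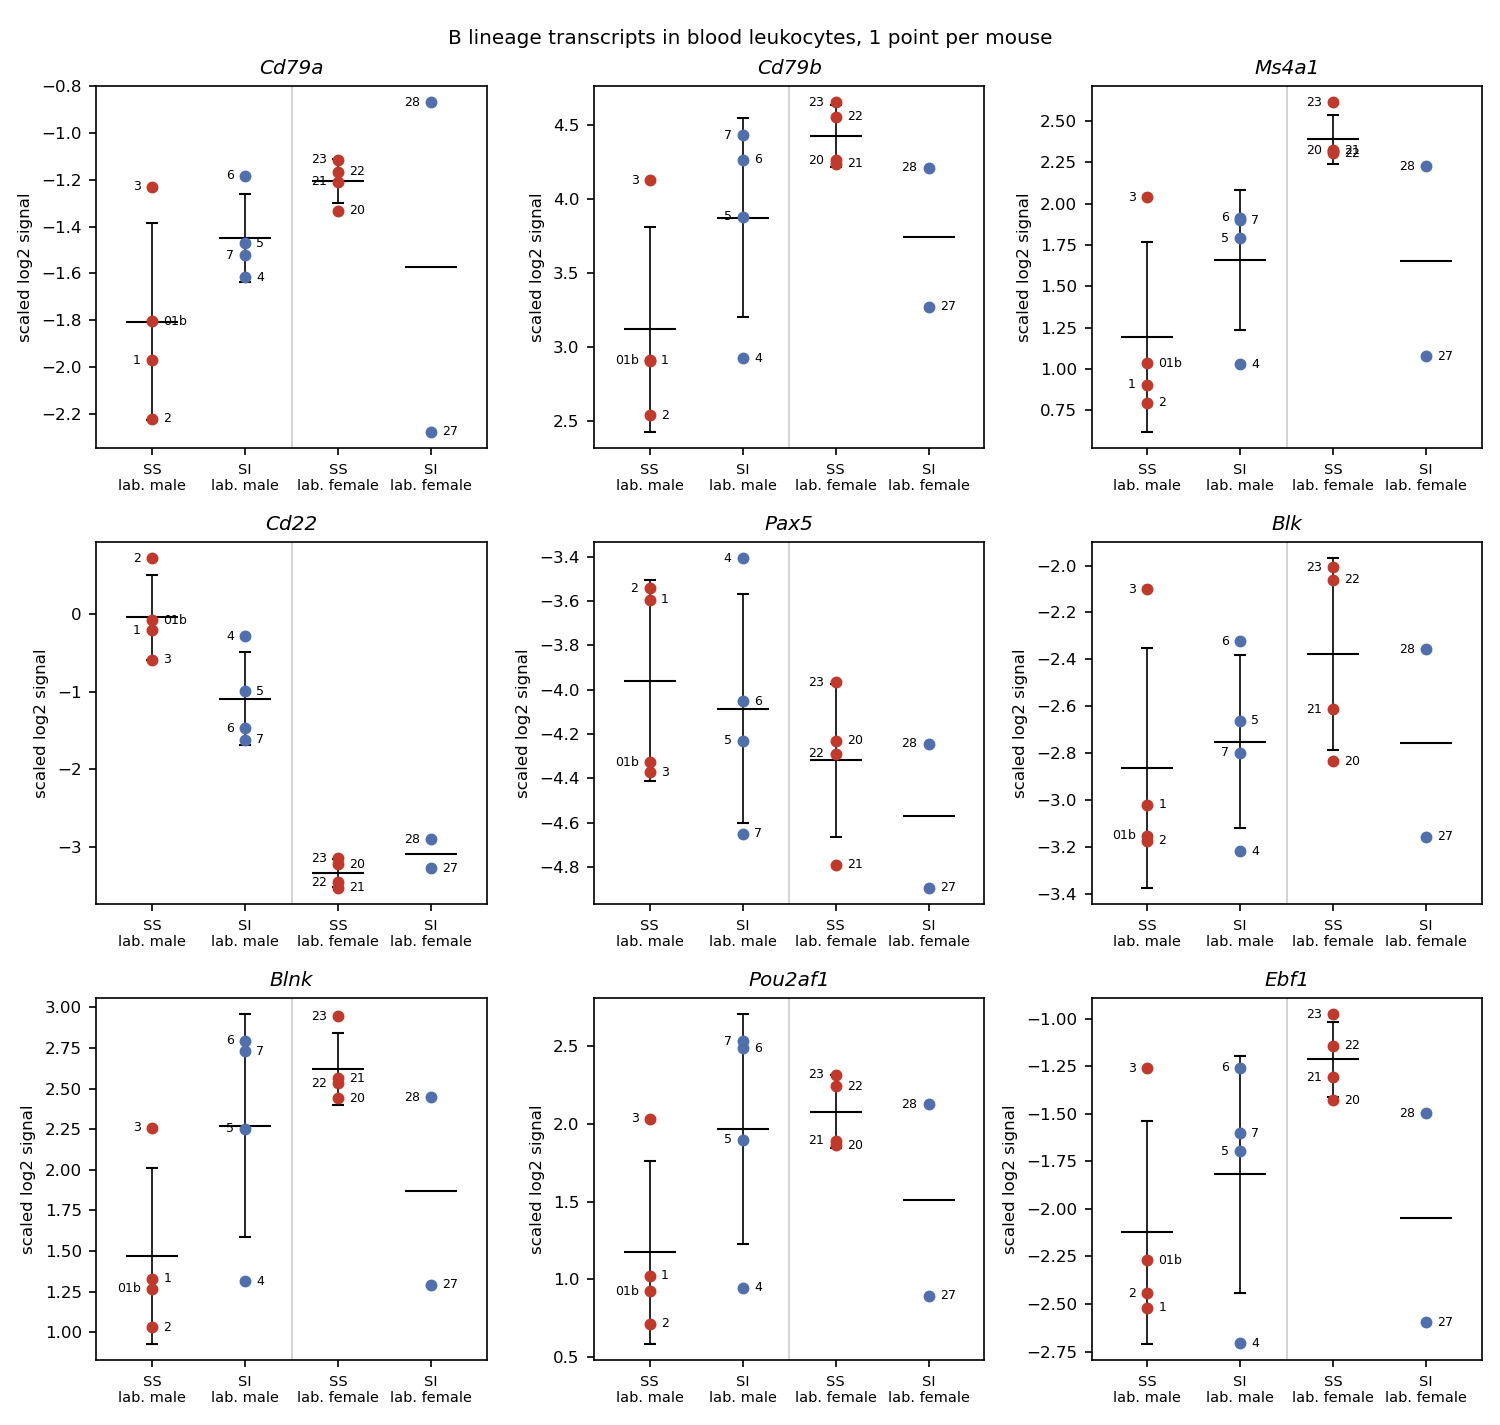
Scaled log2 signal (vertical axis) of the representative probe of each member in the 4 groups, 1 point per mouse with its number, a bar for the mean and whiskers for the SD where a group has 4 mice. In 7 panels SS mice 1, 2 and 01b and SI mouse 4 hold the lowest labelled male values, and Cd22 sits between -3.53 and -2.90 in labelled females, below every labelled male.

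The signalling chains of the receptor were low on the same arrays. Cd79b, which encodes the Ig-beta chain, had levels of 2.91, 2.54, 4.12 and 2.91 in SS labelled males 1, 2, 3 and 01b, against 2.93, 3.88, 4.26 and 4.43 in SI labelled males 4, 5, 6 and 7. In labelled females it had 4.26, 4.23, 4.55 and 4.65 in SS mice 20, 21, 22 and 23, against 3.27 and 4.21 in SI mice 27 and 28. The groups overlapped in labelled males, where SS mouse 3 was as high as the SI mice and SI mouse 4 as low as the SS mice, while every SS labelled female lay above both SI labelled females. The log2 difference of SS minus SI was -0.75 ± 0.39 (SE) in labelled males and 0.68 ± 0.47 in labelled females (limma adjusted p = 0.248 and 0.552).

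Cd79a, which encodes the Ig-alpha chain, had levels of -1.97, -2.22, -1.23 and -1.80 in SS labelled males, against -1.62, -1.47, -1.18 and -1.52 in SI labelled males, in the same order of mice. In labelled females the levels were -1.33, -1.21, -1.17 and -1.11 in SS mice, against -2.28 and -0.87 in SI mice. SS mouse 3 lay among the SI labelled males, and the SI labelled females held both the lowest and the highest value of their slide. The difference was -0.36 ± 0.29 (SE) in labelled males and 0.37 ± 0.35 in labelled females (limma adjusted p = 0.430 and 0.698).

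Ms4a1 encodes CD20, a membrane protein of mature B cells. Its levels were 0.90, 0.80, 2.04 and 1.04 in SS labelled males 1, 2, 3 and 01b, against 1.03, 1.79, 1.91 and 1.90 in SI labelled males 4, 5, 6 and 7. In labelled females they were 2.32, 2.32, 2.31 and 2.61 in SS mice, against 1.08 and 2.23 in SI mice. SS mouse 3 had the highest value of all labelled males and SI mouse 4 a value like those of the other SS mice, whereas SS labelled females were all above the SI ones. The difference was -0.46 ± 0.33 (SE) in labelled males and 0.74 ± 0.40 in labelled females (limma adjusted p = 0.369 and 0.412).

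The probe for Cd22, the inhibitory receptor, followed another order. Cd22 rests on this 1 probe, whose sequence was not used here, and whether it reports Cd22 RNA alone was not tested. Its levels were -0.21, 0.72, -0.59 and -0.07 in SS labelled males 1, 2, 3 and 01b, against -0.28, -0.99, -1.47 and -1.62 in SI labelled males 4, 5, 6 and 7. In labelled females they were -3.23, -3.53, -3.46 and -3.15 in SS mice, against -3.28 and -2.90 in SI mice. In labelled males 3 SS mice were above every SI mouse, and SI mouse 4 was above SS mouse 3. The difference of 1.05 ± 0.32 (SE, 2.07-fold, 95% interval 0.36 to 1.75) in labelled males was the 1 member difference within a slide with an unadjusted p under 0.05 (0.00594), and it did not pass over all probes (limma adjusted p = 0.0914). In labelled females the difference was -0.25 ± 0.39 (SE, limma adjusted p = 0.824). The probe was dim there, with processed signals from 48.08 (SI mouse 28) to 86.25 (SS mouse 22). In labelled males they ran from 305.44 (SI mouse 4) to 916.88 (SS mouse 2). The part of this low signal in the labelled female difference was not tested.

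Cd22 also stood apart between the slides. It averaged -3.26 ± 0.22 (SD, n = 6) in labelled females and -0.56 ± 0.78 (SD, n = 8) in labelled males, a difference of -2.69 with no overlap. It was the 1 member of 9 whose labelled female values all lay below the labelled male values, as did those of 14.4% of all tested probes (3.13% lay all above, 17.5% in either direction). For the other 8 members the same difference ran from -0.38 for Pax5 to 0.72 for Ms4a1, and the slides overlapped for each of them. For Cd22 the slides also did not overlap with the other scalings, with normexp and in the authors' deposited log2 table, where the difference ran from -4.57 to -1.80. Slide and sex label cannot be told apart here.

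Blk encodes a kinase that acts on the receptor chains, and Blnk an adaptor that acts downstream of them. Blnk, the adaptor, had levels of 1.33, 1.03, 2.26 and 1.27 in SS labelled males 1, 2, 3 and 01b, against 1.31, 2.25, 2.79 and 2.73 in SI labelled males 4, 5, 6 and 7. In labelled females it had 2.44, 2.56, 2.53 and 2.95 in SS mice, against 1.29 and 2.45 in SI mice. The labelled males fell into a low and a high set of 4 arrays with SS and SI mice in both, and SI labelled female 27 lay far below the other 5 arrays of its slide. The difference was -0.80 ± 0.37 (SE) in labelled males, the lowest among the members there, and 0.75 ± 0.46 in labelled females (limma adjusted p = 0.211 and 0.476).

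Blk, a Src family kinase of B cells, had levels of -3.02, -3.17, -2.10 and -3.15 in SS labelled males, against -3.22, -2.66, -2.32 and -2.80 in SI labelled males. In labelled females it had -2.83, -2.61, -2.06 and -2.01 in SS mice, against -3.16 and -2.36 in SI mice. The groups overlapped on both slides, with SS mouse 3 the highest and SI mouse 4 the lowest labelled male. The difference was -0.11 ± 0.31 (SE) in labelled males and 0.38 ± 0.38 in labelled females (limma adjusted p = 0.835 and 0.714).

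Among the transcription regulators, Pou2af1 and Ebf1 behaved like the receptor chains, and Pax5 did not in labelled males. There Pax5 had a Pearson r of -0.55 with Cd79a and -0.75 with Cd79b. In labelled females these values were 0.68 and 0.78. Pou2af1, the octamer coactivator, had levels of 1.02, 0.71, 2.03 and 0.92 in SS labelled males 1, 2, 3 and 01b, against 0.95, 1.90, 2.48 and 2.53 in SI labelled males 4, 5, 6 and 7. In labelled females it had 1.86, 1.89, 2.24 and 2.32 in SS mice, against 0.89 and 2.13 in SI mice. The groups overlapped on both slides. The difference was -0.79 ± 0.40 (SE) in labelled males and 0.57 ± 0.49 in labelled females (limma adjusted p = 0.239 and 0.652).

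Ebf1, a factor needed from the first steps of B cell development, had levels of -2.52, -2.44, -1.26 and -2.27 in SS labelled males, against -2.71, -1.70, -1.26 and -1.60 in SI labelled males. In labelled females it had -1.43, -1.31, -1.14 and -0.98 in SS mice, against -2.60 and -1.50 in SI mice. Labelled males overlapped, and the SS labelled females all lay above the SI ones, by a small margin over SI mouse 28. The difference was -0.31 ± 0.36 (SE) in labelled males and 0.83 ± 0.44 in labelled females (limma adjusted p = 0.594 and 0.403).

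Pax5, the factor that maintains B cell identity, had levels of -3.59, -3.54, -4.37 and -4.33 in SS labelled males 1, 2, 3 and 01b, against -3.41, -4.23, -4.05 and -4.65 in SI labelled males 4, 5, 6 and 7. In labelled females it had -4.23, -4.79, -4.29 and -3.97 in SS mice, against -4.89 and -4.24 in SI mice. The groups overlapped on both slides, and SI mouse 4, low for the receptor chains, was the highest labelled male. The tested Pax5 probe was dim, with processed signals from 18.98 (SI labelled female 28) to 66.95 (SI labelled male 6). The difference was 0.13 ± 0.31 (SE) in labelled males and 0.25 ± 0.38 in labelled females (limma adjusted p = 0.809 and 0.818).

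**Figure D2:**
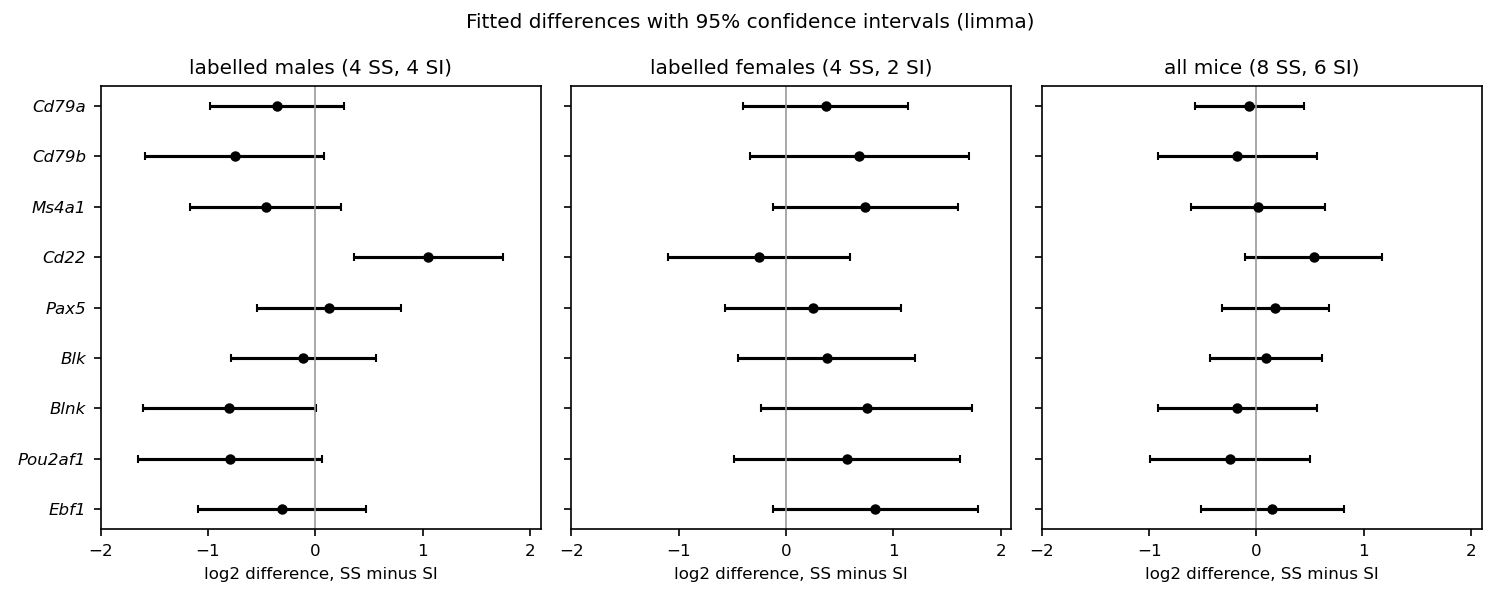
Fitted log2 difference of SS minus SI (horizontal axis) for each member in labelled males, in labelled females and in all mice, with 95% confidence intervals from limma. In labelled males 7 of 9 differences are negative and in labelled females 8 of 9 are positive, and Cd22 in labelled males is the 1 interval that leaves out 0.

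Within labelled males, 0 of 9 members passed with limma, as did 0% of the 24011 tested probes, and 1 of 9 had an unadjusted p under 0.05 (23.7% of all probes). The median log2 difference of the members was -0.36, a 0.78-fold level, against 0.09 over all probes. The groups did not overlap for 0 of 9 members, against 9.57% of all probes (8.4% higher and 1.17% lower in SS). Without SI mouse 4 the count was 4 of 9: Cd22 rose by 1.32 and Blnk, Pou2af1 and Cd79b fell by 1.12, 1.13 and 1.07 (limma adjusted p between 0.0144 and 0.0331). The same omission made 9413 probes pass, 39.2% of all, so 4 of 9 members is near the background of that fit. Over all alternatives the adjusted p ran from 0.00307 to 0.277 for Cd22 and from 0.0032 to 0.512 for Blnk.

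Within labelled females, 0 of 9 members passed, against 4% of all probes (3.18% higher and 0.82% lower), and 0 of 9 had an unadjusted p under 0.05 (15.8% of all probes). The median log2 difference of the members was 0.57, a 1.48-fold level, against -0.11 over all probes. SS mice did not overlap SI mice for 3 of 9 members, Cd79b, Ms4a1 and Ebf1, each higher in SS; 34.7% of all probes did not overlap in either direction with 16.5% higher and 18.1% lower in SS. The median rests on 1 mouse: it was -0.02 without SI mouse 27 and 1.15 without SI mouse 28. The 95% intervals were wide, for example from -0.34 to 1.70 for Cd79b.

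In all mice, with the slide as a term, 0 of 9 members passed (7.99% of all probes) and 0 of 9 had an unadjusted p under 0.05 (20.3% of all probes). The median log2 difference was 0.02, against -0.04 over all probes. Single members ran from -0.25 ± 0.35 (SE) for Pou2af1 to 0.53 ± 0.30 for Cd22 (limma adjusted p = 0.711 and 0.338). The 95% interval of Cd79a, from -0.58 to 0.44, and that of Cd79b, from -0.92 to 0.56, give the range of differences these 14 mice leave.

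The SS minus SI difference was higher in labelled females than in labelled males for 8 of 9 members and lower for Cd22. The difference between the slides was 1.55 ± 0.59 (SE) for Blnk, 1.44 ± 0.61 for Cd79b, 1.20 ± 0.52 for Ms4a1 and -1.30 ± 0.51 for Cd22. None passed over all probes: 0 of 9 members, against 0.0458% of all probes (0.00416% higher and 0.0416% lower), with limma adjusted p between 0.331 and 0.908. An unadjusted p under 0.05 was reached by 5 of 9, against 12.6% of all probes. The median over the members was 1.14, against -0.11 over all probes, and it was 0.59 without SI labelled female 27. Slide and sex label are 1 split, and the result rests on 2 SI labelled females. For Cd22 it also rests on the dim labelled female signals given above.

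The order of the mice was shared by most members. In labelled males the same 4 arrays, SS mice 1, 2 and 01b and SI mouse 4, held the lowest 4 of 8 values for 7 of 9 members: Cd79a, Cd79b, Ms4a1, Blk, Blnk, Pou2af1 and Ebf1. For Cd22 these 4 arrays held the highest 4 values, and for Pax5 neither. The set was picked from the members' values, so this is a description with no test. These 4 arrays also held the lowest 4 values for 26.5% of all tested probes and the highest 4 for 24.8%. The 4 were the dimmest labelled male arrays before scaling, with a brightness (median log2 signal of the probes well above background on all arrays, centred over the 14 arrays) of -0.84 to -0.09, against 0.49 to 1.02 on the other 4. The part of array brightness in the members' order was not tested. In labelled females SI mouse 27 was the lowest of 6 for 8 of 9 members, all except Cd22. This mouse too was picked from the members' values. The share of all probes with their lowest value on it was not counted, so this is also only a description.

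**Figure D3:**
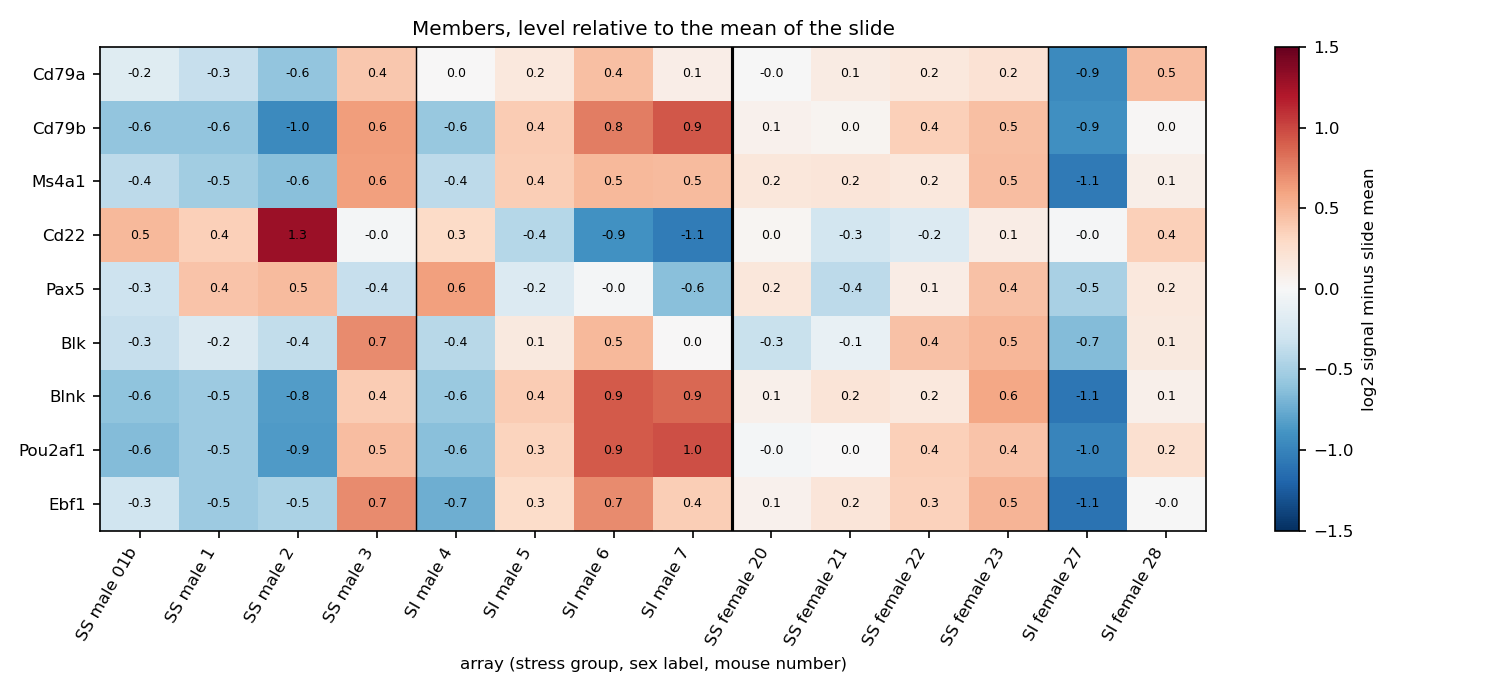
Scaled log2 signal of each member (rows) on each array (columns) minus the mean of the slide, printed in the cells and as colour from blue (low) to red (high). SS labelled males 01b, 1 and 2, SI labelled male 4 and SI labelled female 27 are blue in most rows, and the Cd22 row is mostly of the opposite colour in labelled males.

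Levels of markers of other blood cells are given here as means over a list, centred on the slide, and the lists differed in whether they followed these arrays. Platelet markers (8 genes) ran from 0.22 to 1.10 in SS labelled males, against -1.84 to 0.22 in SI labelled males, where SI mouse 4 was the highest, and from 0.48 to 0.86 in SS labelled females, against -1.34 to -1.03 in SI labelled females. All 8 platelet markers rose in SS in all mice (median log2 difference 1.53), against 7.42% of all probes. Neutrophil markers (8 genes) ran from 0.08 to 0.66 in SS labelled males, against -0.98 to -0.13 in SI labelled males, and from -1.21 to -0.75 in SS labelled females, against 1.41 to 2.28 in SI labelled females. Of these, 5 of 8 fell in labelled females, against 0.82% of all probes. Neutrophil markers did not follow the 4 arrays, since SI labelled male 4 was the lowest labelled male and SS labelled male 3 the highest. Erythroid markers (5 tested) did: in labelled males they were 0.03, 0.39, -1.56 and 0.97 in SS mice 1, 2, 3 and 01b, against 2.38, -0.11, -0.48 and -1.61 in SI mice 4, 5, 6 and 7. The 4 arrays lowest for the 7 members were thus the 4 highest for erythroid markers. They were also the 4 highest labelled males for platelet markers, where SI mouse 4 (0.22003) and SS mouse 3 (0.21999) were nearly equal. Monocyte markers were lowest on the same 4 arrays, like the 7 members. They were -0.16, -0.05, 0.08 and -0.25 in SS mice 1, 2, 3 and 01b, against -0.56, 0.39, 0.14 and 0.41 in SI mice 4, 5, 6 and 7. Markers of B cell precursors were highest on these 4 arrays, from 0.17 to 0.47, against -0.62 to 0.01 on the other labelled male arrays. In labelled females erythroid markers ran from -1.19 to -0.14 in SS mice, against 0.52 in SI mouse 27 and 1.40 in SI mouse 28.

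T cell markers (7 tested) overlapped between the groups on both slides. They ran from -0.52 to 0.47 in SS labelled males, against -0.36 to 1.25 in SI labelled males, and from -0.59 to 0.17 in SS labelled females, against -0.53 to 0.75 in SI labelled females. SI labelled female 27, low for B lineage genes, had -0.53 for T cell markers, 1.42 for monocyte markers (4 tested) and 1.41 for neutrophil markers. SI labelled female 28 was not low for B lineage genes (0.17 over the 9 members). It had 0.75 for T cell markers, -0.22 for monocyte markers and 2.28 for neutrophil markers. The part of these other cells in the members' values was not tested.

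**Figure D4:**
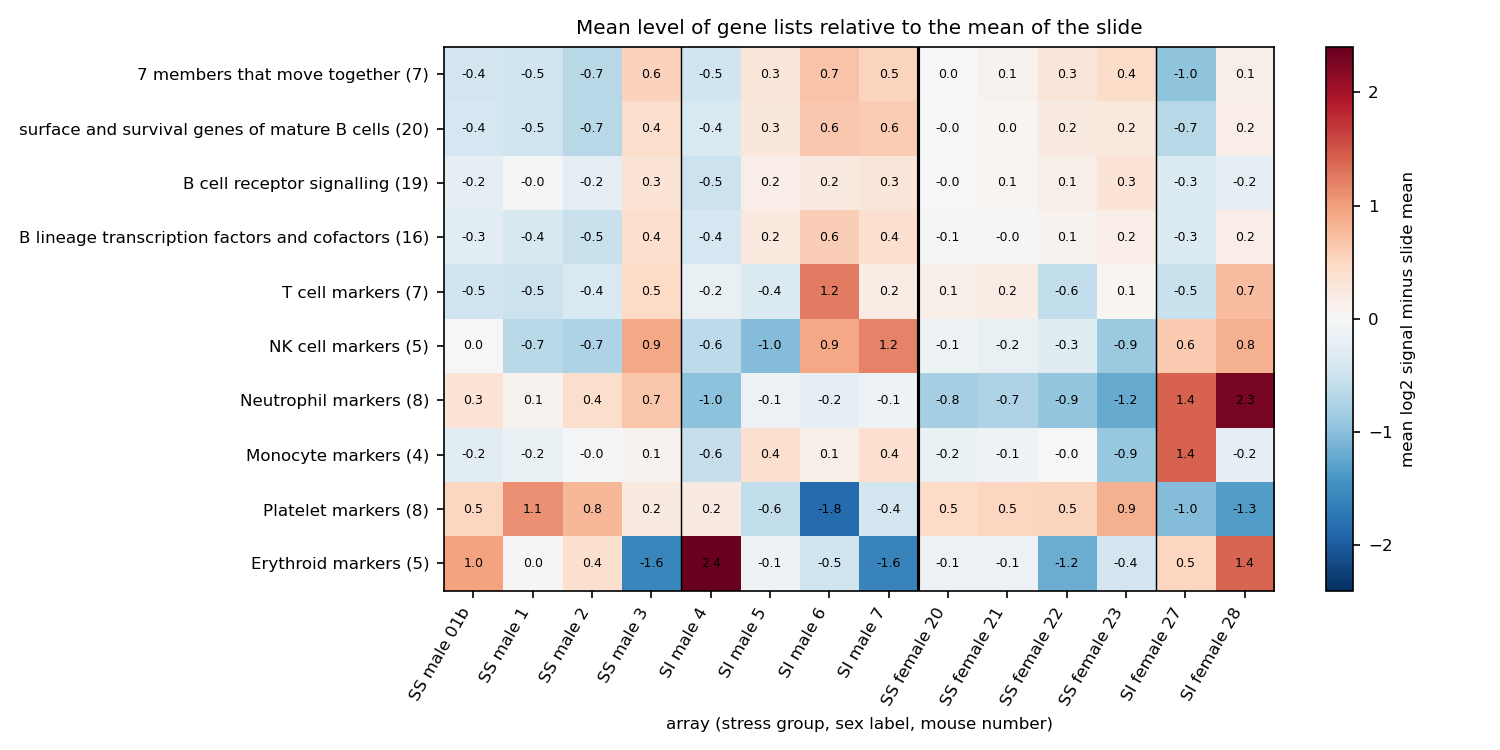
Mean log2 signal of gene lists (rows, number of tested genes in brackets) on each array (columns) minus the mean of the slide, printed in the cells. The 7 members and the surface and survival genes of mature B cells are both low on SS labelled males 01b, 1 and 2 and SI labelled male 4. SI labelled female 27 is low for the members and high for neutrophil and monocyte markers. SI labelled female 28 is high for neutrophil markers but not low for the members.

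The rest of the receptor pathway was read from lists chosen with earlier results of these data known. Of 20 signalling genes 19 were tested, and in all mice 3 rose and 0 fell; the median log2 difference was 0.01 (7.42% of all probes were higher and 0.571% lower). They were Cd81, a tetraspanin of the cell membrane (1.37 ± 0.21, SE, limma adjusted p = 0.00474), Fyn, a Src family kinase also known from T cells and platelets (1.02 ± 0.18), and Dapp1, an adaptor that binds phosphoinositides (0.73 ± 0.16). The Dapp1 call was lost with the percentile taken over all probes and with no filter on dim probes (limma adjusted p = 0.131 and 0.0852). In labelled females Cd81 and Fyn rose (1.78 ± 0.31 and 1.16 ± 0.28), 2 of 19; both calls were lost without labelled female 20, 23, 27 or 28, and that of Fyn also without labelled female 21 or 22 or labelled male 2, 5 or 01b. Both were also lost in the authors' deposited log2 table and with no filter, and that of Fyn with median scaling, normexp and the row on the slide as a term (limma adjusted p up to 0.506). In labelled males 0 of 19 passed. Of all probes, 3.18% rose in labelled females and 0% passed in labelled males.

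Of 12 inhibitors of receptor signalling, all tested, none passed in any comparison, and the median log2 difference was -0.46 in labelled males, 0.07 in labelled females and -0.35 over both slides. The lowest unadjusted p in all mice belonged to Inpp5d, the lipid phosphatase SHIP1 (0.41 ± 0.15, SE, limma adjusted p = 0.126), and Pirb, an inhibitory receptor also found on myeloid cells (-0.77 ± 0.28, limma adjusted p = 0.130). Pirb passed with array weights and without SI labelled male 4 (limma adjusted p = 0.00137 and 0.00368). These settings let 44.3% and 16.1% of all probes pass. An unadjusted p under 0.05 was reached by 2 of 12 in all mice, against 20.3% of all probes. The highest difference of these 12 in labelled males was 0.40, for Inpp5d.

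Of 16 further transcription factors and cofactors of the lineage, 1 rose in all mice, Runx1, a factor of blood cells that megakaryocytes also use (0.88 ± 0.21, SE, limma adjusted p = 0.0148). In labelled females Runx1 rose (1.30 ± 0.30) and Spi1, which encodes PU.1 of myeloid and B cells, fell by 1.23 ± 0.30. Of all probes, 7.42% rose in all mice, and 3.18% rose and 0.82% fell in labelled females. The median over the list was -0.46 in labelled males, 0.21 in labelled females and -0.12 over both slides. Both calls in labelled females were lost without any 1 of the 6 labelled females or without labelled male 2, 5 or 01b, and that of Spi1 also without labelled male 7. Both were lost too with no filter and with the row as a term, that of Runx1 with normexp, and that of Spi1 with the percentile over all probes, with quantile scaling and in the authors' deposited log2 table. The Runx1 call in all mice was lost without SI labelled female 27 or 28 (limma adjusted p = 0.055 and 0.0531), with the percentile over all probes (0.0793) and with no filter (0.0698).

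Surface and survival genes of mature B cells had medians of the same sign as the members within each slide. Of 21 genes 20 were tested, with median log2 differences of -0.61 in labelled males, 0.53 in labelled females and -0.17 in all mice. In labelled males 1 of 20 differences was positive, against 54.4% of all probes, and in labelled females 16 of 20, against 41.0%. The difference between the slides had a median of 1.30 and an unadjusted p under 0.05 for 11 of 20 genes, against 12.6% of all probes, with none passing over all probes. In all mice 1 rose, Ralgps2, a Ras family exchange factor (0.78 ± 0.22, SE, limma adjusted p = 0.0405), and that call was lost without any 1 of 10 arrays (labelled males 1, 3, 5 and 6 and all labelled females), with the percentile over all probes, with no filter and with array weights (limma adjusted p up to 0.178). Of all probes, 7.42% rose in all mice, and 3.18% rose and 0.82% fell in labelled females. In labelled females Ralgps2 rose (1.39 ± 0.29) and Tnfsf13b, the survival factor BAFF made by myeloid cells, fell by 1.81 ± 0.30. Here Ralgps2 lost its call without any 1 of the 6 labelled females, and Tnfsf13b without SI mouse 28; both were lost with no filter, and Tnfsf13b in the authors' deposited log2 table. The BAFF receptor Tnfrsf13c did not pass: its difference was -0.92 ± 0.41 (SE) in labelled males, and 0.86 ± 0.50 was found in labelled females (limma adjusted p = 0.196 and 0.458).

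Of 12 immunoglobulin chain genes 1 was matched through the RefSeq table, Jchain, the joining chain of secreted IgM and IgA. It had a difference of 1.37 ± 0.45 (SE) in all mice and did not pass (limma adjusted p = 0.0832). Of 25 alternatives 3 let Jchain pass: array weights, leaving out SI labelled male 7 and leaving out SS labelled male 3 (limma adjusted p = 0.0495, 0.0431 and 0.0191). Among 7 plasma cell markers 6 were tested and 1 rose in all mice, Derl3, an endoplasmic reticulum protein (1.70 ± 0.39, SE), which was well above background on 9 of 14 arrays. Of all probes, 7.42% rose in all mice and 3.18% in labelled females. Derl3 rose in labelled females too (2.62 ± 0.54). Its differences shrank to 0.27 in all mice and 0.01 in labelled females at the lowest over the alternatives (both with normexp, limma adjusted p = 0.683 and 0.986). The call in all mice was also lost in the authors' deposited log2 table, and that in labelled females with no filter and without any 1 of the 6 labelled females.

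Likeness to the members was measured as Pearson's r of slide-centred levels with the mean of the 9 members over 14 arrays, across 11471 other genes. The 10 most alike were Bank1 (0.981), Cr2 (0.971), Rbm10 (0.970), Gimap1, Ccr6, Fcer2a, Gga2, Ablim1, Lax1 and Cacna1i (0.961). Of these, Bank1, a scaffold of B cell receptor signalling, Cr2, a complement receptor of B cells, and Fcer2a, the IgE receptor CD23, are in the B cell lists. An r above 0.9 was reached by 106 genes. The values are descriptions, since the arrays, the scaling and the shared order of the labelled males enter all of them.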

How the data were processed

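Blood leukocyte RNA of 14 mice was hybridised to 1-colour Cy3 arrays. Per the file headers, the deposited processed signals are fluorescence intensity from which Agilent's Feature Extraction software, release 10.7.3.1, had subtracted background and spatial trends (the submitters' processing notes name 9.1). Raw median spot and background signals were used in 1 alternative. The other deposited columns used are flags, per the file headers. The authors deposited a log2 table with 27879 of these probes, with no normalization stated.

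The 3671 control spots were left out. Outlier spots (113 to 174 per array) were left out unless every spot of the probe was flagged on that array. Each member probe has 1 spot, so no member value was left out this way. Spots of a probe were averaged as log2, and arrays were scaled by the 75th percentile of 14502 probes. The 24011 probes that exceeded background clearly on 6 or more of the 14 arrays were analysed with limma 3.58.1 in R 4.3.3, with the slide as a term or in a fit with 4 groups. P values are 2-sided, with Benjamini-Hochberg adjustment across every probe analysed and a threshold of 0.05. Symbols came from RefSeq: 26425 of 31063 RefSeq-type identifiers matched. A gene is represented by its brightest tested probe. The named genes were the 9 members, the listed genes that passed or, where none did, those with the 2 lowest p, and the 10 most alike; Tnfrsf13c and the genes most like Cd22 were added after their values were seen. The members, lists and tests were chosen with earlier results of these data known. Labels do not say whether mice shared a litter or cage, so p-values measure the spread between these mice. The code was tested on simulated data. Alternatives were other scalings, normexp, the deposited table, other filters, array weights and leaving out each array.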

Additional observations from a re-analysis of the deposited data

Results flagged for a closer look

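Within a group of 4 mice, 1 array lay far from the other 3 for 3 of the 27 combinations of member and group that could be examined, and chance flags about 1 in 20. Ms4a1 was 1.03 in SI labelled male 4, against 1.79 to 1.91 in the other SI labelled males. Ms4a1 was 2.61 in SS labelled female 23, against 2.31 to 2.32 in the other SS labelled females. Blk was -2.10 in SS labelled male 3, against -3.17 to -3.02 in the other SS labelled males. No member's SS minus SI difference passed a test of the difference between the slides, and for no member did all SS mice lie on one side of SI on one slide and on the opposite side on the other.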

How the results depend on the processing

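No paired analysis was possible because mouse numbers are not shared between groups. Over 36 member differences (9 members in 4 comparisons), 16 of 414 values under other settings and 4 of 504 values with 1 array left out passed the threshold; none passed as analysed. The 16 all came with array weights, which gave SI labelled male 4 a weight of 0.109 in the fit with 4 groups. With these weights 14037 probes passed in labelled males (58.5%), 10640 in all mice (44.3%) and 2410 for the difference between slides (10%). Members passing were then 6 of 9 in labelled males (median -0.75), 4 of 9 in all mice (median -0.37) and 6 of 9 for the difference between slides. The counts in labelled males and in all mice were near those shares of all probes. The 4 of the second kind came without SI labelled male 4. With 1 array left out, members passing ran from 0 to 4 in labelled males, and the median from -0.022 to 1.15 in labelled females and from 0.59 to 1.69 for the difference between slides. That last median was 0.68 with normexp and 0.63 in the authors' deposited log2 table. The cause of these changes was not tested.

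Signs turned only for differences that did not pass. For Ms4a1 in all mice (0.02) the value was -0.026 with the percentile over all probes, -0.079 with quantile scaling, -0.028 in the deposited table, -0.51 with array weights, and -0.29 to 0.14 with 1 array left out. Array weights gave -0.28 for Blk and -0.37 for Ebf1 in all mice, and leaving out 1 array -0.086 to 0.18 for Blk, -0.14 to 0.30 for Ebf1 and -0.35 to 0.050 for Cd79a. In labelled males Blk was 0.067 with normexp and -0.37 to 0.031 with 1 array left out; Pax5 was -0.052 with the percentile over all probes, -0.13 with quantile scaling, and -0.062 to 0.35 with 1 array left out. In labelled females Pax5 was -0.20 with normexp, and leaving out 1 array gave -0.075 to 0.57 for Pax5, -0.022 to 0.78 for Blk, -0.34 to 1.07 for Cd79a and -0.048 to 1.19 for Pou2af1. For the difference between slides Pax5 was -0.50 with normexp, -0.24 with array weights, and -0.20 to 0.45 with 1 array left out. With normexp 5 members, not 7, had their lowest 4 values on the same 4 labelled male arrays, since Cd79a and Blk no longer did. Pax5 then had its highest 4 values on these arrays, as Cd22 did. Over all probes, those passing in all mice ran from 1125 (no filter) to 10640, in labelled males from 0 to 14037 (212 in the deposited table), in labelled females from 43 (without SS labelled female 23) to 1915 (without SI labelled male 4), and for the difference from 1 (without SS labelled female 23) to 2410. In labelled females Cd81, Fyn, Runx1, Spi1, Ralgps2, Tnfsf13b and Derl3 each lost their call without SI mouse 28, and all but Tnfsf13b without SI mouse 27.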

Other observations

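The genes most like Cd22 were ranked in the same way as those most like the members' mean, a step chosen after its values were seen. Over 14 arrays and 11479 other genes the 10 most alike were Fmn2 (r = 0.967), Trim56 (0.967), Banp (0.964), Mafa, Cym, Tmem8b, Rbfox2, Iqcg, Pappa and Pgbd1 (0.946). None of these 10 is in the B cell lists, against 3 of the 10 genes most like the mean of the members. The lists are short beside the 11479 ranked genes, so finding none of them among 10 says little about Cd22. Their differences in labelled males, whose sign the choice by likeness to Cd22 fixed, ran from 0.88 for Mafa to 1.79 for Cym, and none passed (limma adjusted p between 0.085 and 0.156).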
